A study of Caenorhabditis elegans with 10 samples.

Results

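Aminoacyl-tRNA synthetases are the enzymes that join each amino acid to its own tRNA and so supply every ribosome with its substrates. The genes were chosen by name: every gene of the count table whose symbol is an amino acid letter or pair of letters followed by "ars" and a number, such as pars-1 for the prolyl enzyme. This gave 32 genes of 20182, and all 32 passed the filter on low counts. They were read in ribosome footprints, the mRNA fragments that translating ribosomes shield from nuclease, from entire worms of the nematode Caenorhabditis elegans, strain N2, the laboratory wild type. Larvae hatched overnight from prepared eggs were placed on plates with bacteria as food, and 1 library was made at each of 18, 20, 22, 24, 26, 28, 30, 32, 34 and 36 h later, with no replicate of any time. No mutant, treated or control group exists in this series, so the comparison runs over time and between the enzymes.

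An animal cell needs separate sets of charged tRNAs in the cytosol and in the mitochondrion, where a small ribosome of its own translates the few proteins of the mitochondrial genome. Nuclear genes encode the enzymes of both sets. For some amino acids a separate gene makes the mitochondrial enzyme, and for others a single gene makes both forms, by alternative starts or splicing. Structurally the enzymes fall into class I and class II, which have unrelated catalytic folds.

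Of the 32 genes, 12 encode mitochondrial enzymes (aars-1, dars-2, ears-2, fars-2, iars-2, lars-2, nars-2, pars-2, rars-2, sars-2, vars-1 and yars-2). Another 12 encode cytosolic enzymes of amino acids that also have a mitochondrial gene, among them both subunits of the phenylalanyl enzyme (aars-2, dars-1, ears-1, fars-1, fars-3, iars-1, lars-1, nars-1, pars-1, rars-1, sars-1 and yars-1). The remaining 8 are alone for their amino acid under this naming (cars-1, gars-1, hars-1, kars-1, mars-1, qars-1, tars-1 and wars-1). Some of these may serve both compartments, and they were counted with the cytosolic enzymes unless stated. The grouping rests on background knowledge of the gene names and was not tested with these data. A pair of synthetase genes escaped the naming rule: glp-4 (WBGene00006936), the cytosolic valyl enzyme, known first for its germline mutant, and Y105E8A.20 (WBGene00013678), which RefSeq calls mars-2, the mitochondrial methionyl enzyme. Both are described beside the 32 and are not counted among them.

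The smallest library held 16723638 counts (24 h) and the largest 33696423 (26 h), and the 32 genes had between 172 and 19598 counts each in every library. Together they held 0.532% to 0.645% of all footprints. Markers of body-wall muscle, intestine, epidermis, pharynx, neurons and germline were found in all libraries, as whole worms should show, and the lowest of any was 1.80 CPM. CPM here means counts scaled to a library of 1000000 after correction with TMM factors, which are computed from the bulk of genes. These factors were 1.16 at 22 h and 1.11 at 30 h, against 0.858 at 34 h and 0.828 at 36 h. With only footprints analysed, a change in mRNA and a change in its translation cannot be told apart, nor can, in whole animals, fewer cells of a type from less RNA per cell.

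The enzymes differed in level far more than they changed with time. Levels of different genes were compared as CPM per coding kilobase, using the longest coding sequence of each gene. The order of genes depends on this choice, as some have much shorter annotated coding sequences. Among them are sars-2 (225 codons in place of 441) and fars-2 (74 in place of 458). Non-mitochondrial genes such as rars-1 (108 in place of 713) have them too. Which forms were translated was not tested. All 12 mitochondrial enzymes lay below all 20 others: the mitochondrial ones averaged between 4.61 and 39.4 CPM per coding kilobase with a median of 13.9, against 51.4 to 269 with a median of 120.5 for the rest. Highest of all was sars-1 (WBGene00005663), the cytosolic seryl enzyme, at 269 ± 34.1 CPM per coding kilobase (SD over 10 time points), followed by the aspartyl enzyme dars-1 (WBGene00001094) at 233 ± 12.6 and the lysyl enzyme kars-1 (WBGene00002238) at 225 ± 13.1. The ranges of these neighbours over the libraries overlapped. The lowest of the non-mitochondrial enzymes was cars-1 (WBGene00000800), the cysteinyl enzyme, at 51.4 ± 8.15 CPM per coding kilobase. Among the mitochondrial enzymes sars-2 (WBGene00005662) and fars-2 (WBGene00013361), for serine and phenylalanine, stood at 39.4 ± 1.95 and 39.0 ± 4.42, and the next, pars-2 (WBGene00004190), at 20.8 ± 2.62. The lowest was aars-1 (WBGene00000196), the mitochondrial alanyl enzyme, at 4.61 ± 0.463.

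**Figure D1:**
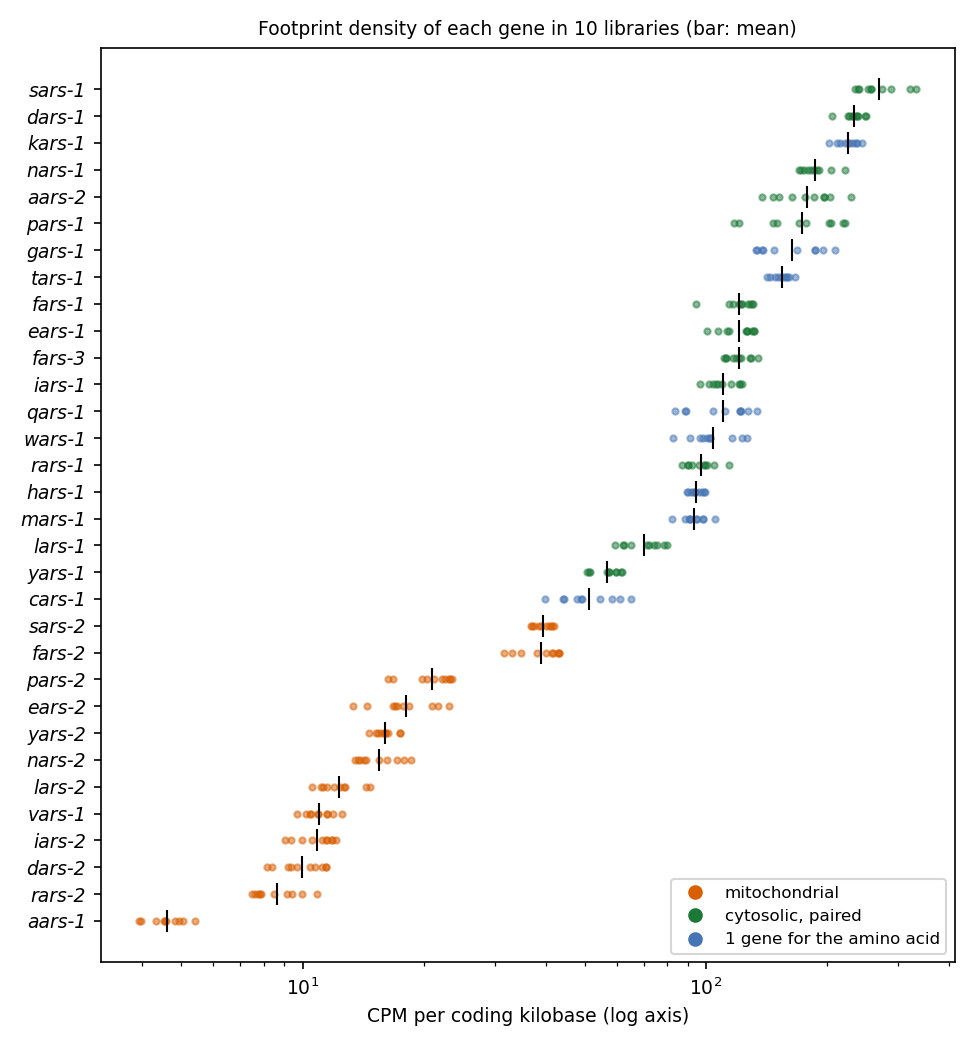
Footprint density of the 32 genes (CPM per coding kilobase, log axis), with a point for each of the 10 libraries, a black bar for the mean, and colour for the group. The mitochondrial enzymes run from 4.61 to 39.4 on average and lie under all others, whose means run from 51.4 to 269.

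Within an amino acid the same order held in every library. Counting each phenylalanyl subunit separately gave 12 pairs of a mitochondrial and a cytosolic gene, and in all 12 the mitochondrial density was below the cytosolic one at all 10 times. The gap ran from 3.09-fold for fars-2 against fars-3 (WBGene00001498) to 38.7-fold lower for aars-1 against aars-2 (WBGene00000197), with a median of 7.55-fold. These gaps also rest on the longest coding sequences. For tyrosine the mitochondrial yars-2 (WBGene00006968) was 3.56-fold lower than yars-1 (WBGene00013677). Leucine and glutamate had gaps of 5.70-fold and 6.69-fold, serine and proline of 6.83-fold and 8.28-fold. Isoleucine, arginine and asparagine lay at 10.2-fold, 11.3-fold and 12.1-fold. Aspartate, with dars-2 (WBGene00001095) at 9.98 and dars-1 at 233 CPM per coding kilobase, differed 23.3-fold. The valyl enzyme vars-1 (WBGene00006935) lay 17.9-fold below glp-4. Methionine, with Y105E8A.20 at 6.39 and mars-1 (WBGene00003415) at 93.4 CPM per coding kilobase, was not counted as a pair.

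Cytosolic phenylalanyl-tRNA synthetase is built of 2 different subunits in equal number, and its genes gave a check of density between proteins of a fixed ratio. The gene fars-1 (WBGene00001497), for the alpha subunit, averaged 121 ± 10.9 CPM per coding kilobase, and fars-3, for the beta subunit, 120.4 ± 8.09 (SD over 10 time points). The ratio of fars-1 to fars-3 averaged 1.00 and ran from 0.844 (22 h) to 1.09 (32 h). With the shorter annotated coding sequence of fars-1, of 496 codons in place of 552, the mean ratio would be 1.11.

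Over the 18 h each of the 32 synthetase genes stayed within a 2-fold range, a measure that was not computed over all tested genes. The highest library exceeded the lowest by 1.11-fold to 1.88-fold in each of the 32, and by less than 1.5-fold in 25 of them. The smallest spread was that of hars-1 (WBGene00002001), the histidyl enzyme, at 156, 155, 154, 148, 144, 147, 146, 151, 141 and 141 CPM from 18 h to 36 h. The mitochondrial sars-2 stood at 48.6, 49.6, 54.5, 55.4, 54.8, 54.01, 53.1, 51.6, 48.8 and 51.0 CPM. In both the values of all libraries lay close together, and for the lowly expressed aars-1 they were 9.43, 10.8, 10.8, 9.36, 11.5, 12.8, 10.9, 11.98, 10.3 and 11.7 CPM. The flatness of hars-1 holds on the TMM scale: with library totals alone it fell by 0.45 log2 (edgeR adjusted p = 0.00281) and its cycle of 0.33 log2 passed (adjusted p = 0.0243).

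**Figure D2:**
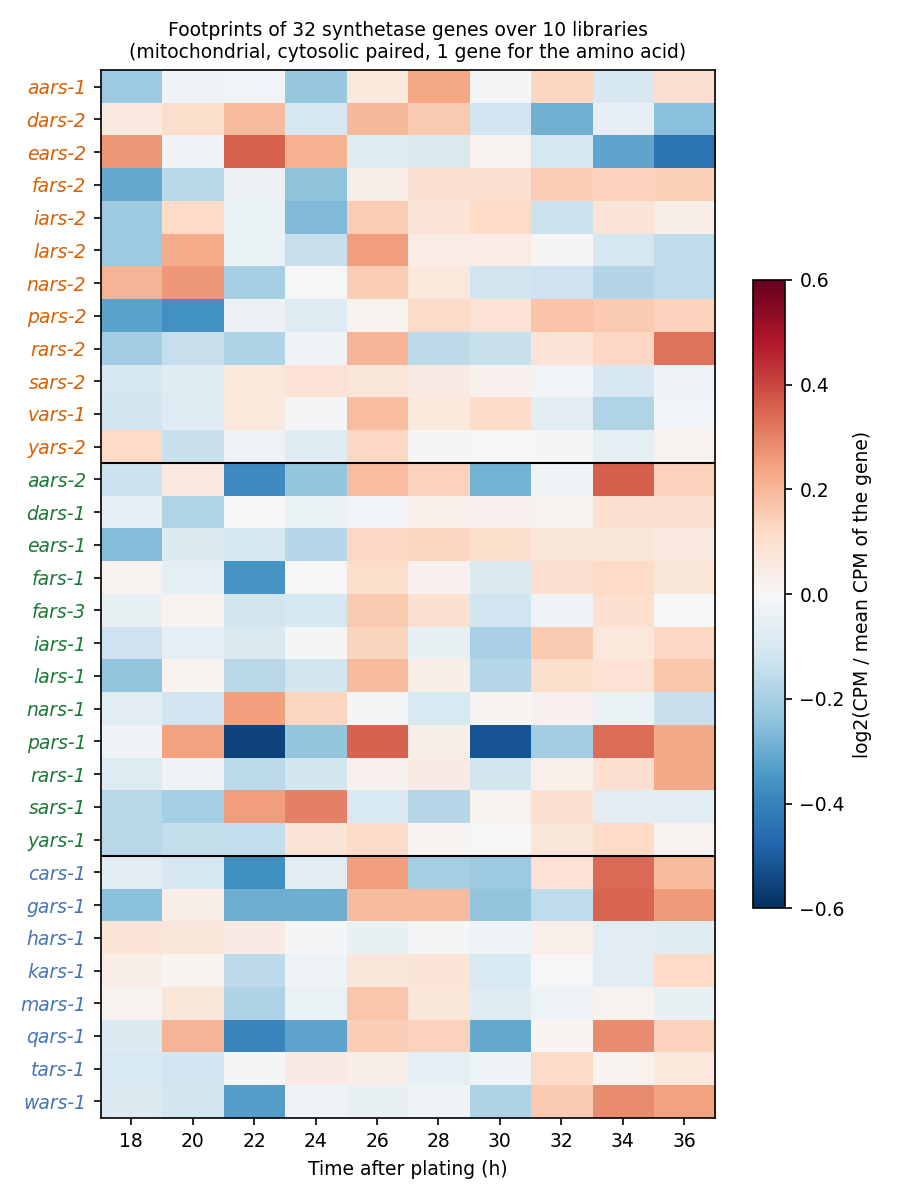
Level of each of the 32 genes at 10 times (h after plating), as log2 of its CPM over its own mean CPM, with the mitochondrial enzymes on top, then the paired cytosolic enzymes and the genes alone for their amino acid. Most rows stay pale, and the strongest colours are those of pars-1, low at 22 h and 30 h.

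Whether any enzyme followed the 8 h larval cycle or changed steadily was asked with a curve fitted through the 10 libraries by edgeR, a straight line in time plus a wave of 8 h. A call needed a Benjamini-Hochberg adjusted p under 0.05 over all 13958 tested genes and a size of at least 1 log2, peak to trough for the cycle or over the 18 h for the trend. None of the 32 was called as oscillating, where 22.7% of all tested genes were, and 9 had an unadjusted p under 0.05. DESeq2 also called 0 at that size. None was called as rising or falling either, where 15.7% and 10.8% of all tested genes were (unadjusted p under 0.05 for 11 upward and 3 downward; 0 by DESeq2 at that size). The largest fitted cycle among the 32 was 0.85 log2 and their median 0.19 log2, beside 0.59 log2 over all tested genes. The synthetase genes also had a higher level, at a median of 174 CPM against 12.2 CPM over all tested genes. These sets were not matched for level, and a fitted cycle, which cannot be negative, is enlarged by noise. The median standard error was 0.10 log2 for the synthetase genes and 0.22 log2 over all tested genes. At this precision smaller changes also passed the adjusted p, and these are described next without the minimum size.

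A small cycle with common low points at 22 h and 30 h was seen in 5 non-mitochondrial enzymes: those for proline, glycine, alanine, glutamine and cysteine. With the seryl enzyme, whose cycle ran nearly opposite, 6 of the 32 passed the adjusted p for oscillation at any size, where 34.4% of all tested genes did. All 6 were among the 20 non-mitochondrial genes and none among the 12 mitochondrial ones (1 at an unadjusted p under 0.05), a difference that was not tested and that depends on the scaling. Scaled by library totals alone, 2 mitochondrial genes passed, ears-2 at 0.63 log2 (edgeR adjusted p = 0.0116) and sars-2 at 0.40 log2 (adjusted p = 0.0445). Of all tested genes 43.7% passed on that scale. Peaks are given between 26 h and 34 h and recur every 8 h in the fit.

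The largest cycle was that of pars-1 (WBGene00004189), the cytosolic prolyl enzyme of class II. Its levels from 18 h to 36 h were 296, 356, 204, 255, 385, 308, 210.0, 261, 380.1 and 353 CPM. The lowest libraries were 22 h and 30 h, and the highest 26 h and 34 h, so the drop was seen at the same point of both cycles. The fit gave 0.85 ± 0.13 log2 peak to trough (SE), a 1.80-fold difference, with a peak at 26.7 ± 0.186 h (edgeR adjusted p = 0.00532). It passed in all 21 alternatives tried, with sizes from 0.56 to 0.97 log2.

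The glycyl enzyme gars-1 (WBGene00001744), which in many animals also serves mitochondria, had 307, 374, 297, 297, 414, 415, 309, 327, 464 and 434 CPM over the same times. It was low at 18, 22, 24 and 30 h and highest at 34 h, and its cycle of 0.53 ± 0.10 log2 peaked at 27.0 ± 0.237 h (edgeR adjusted p = 0.0129). The cytosolic alanyl enzyme aars-2, also of class II, had 473, 538, 399, 441, 588, 569, 425, 510.1, 664 and 569 CPM. It too was lowest at 22 h and 30 h, and its cycle of 0.52 ± 0.10 log2 peaked at 26.6 ± 0.236 h (edgeR adjusted p = 0.0128; 0.0563 without the 30 h library).

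The other members of this set are class I enzymes. Levels of qars-1 (WBGene00001336), the glutaminyl enzyme, ran at 245, 299, 197, 209, 287, 286, 209.9, 262, 316 and 285 CPM, with the lowest values at 22, 24 and 30 h. Its cycle of 0.56 ± 0.12 log2 peaked at 26.8 ± 0.267 h (edgeR adjusted p = 0.0216; not passed without the 22, 24, 30 or 34 h library, at most 0.0785). For cars-1 they were 134, 131, 108, 134, 167, 121, 120.3, 149, 177 and 160 CPM, highest at 26 h and 34 h. Its cycle of 0.47 ± 0.09 log2 peaked at 33.9 ± 0.257 h and, as the wave repeats, 8 h earlier (edgeR adjusted p = 0.0157; not passed without the 22, 26, 30 or 34 h library, at most 0.0649).

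The seryl enzyme sars-1, of class II, was high where these were low. Its levels were 350.1, 342, 468, 484, 369, 349, 399, 419.6, 376 and 376 CPM, with the highest values at 22 h and 24 h and a smaller maximum at 32 h. The fit gave 0.43 ± 0.10 log2 with a peak at 31.2 ± 0.301 h (edgeR adjusted p = 0.0322), and passed in 3 of the 10 fits that left out 1 library. It was lost without the 18, 20, 22, 24, 26, 28 or 34 h library, with adjusted p up to 0.0950. The asparaginyl enzyme nars-1 (WBGene00003815) had a fitted peak at 31.2 h as well but did not pass on the TMM scale (0.26 ± 0.09 log2, edgeR adjusted p = 0.112).

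The cytosolic valyl gene glp-4, outside the naming rule, had the largest cycle of all synthetase genes looked at. It stood at 576, 394, 902, 912, 585, 448, 800.3, 677, 459 and 434 CPM, high at 22, 24, 30 and 32 h. The fit gave 1.12 ± 0.17 log2 with a peak at 31.2 ± 0.189 h (edgeR adjusted p = 0.00525), past the required size, and the adjusted p was passed in all 21 alternatives. Without a single library its size ran from 0.97 to 1.31 log2.

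**Figure D3:**
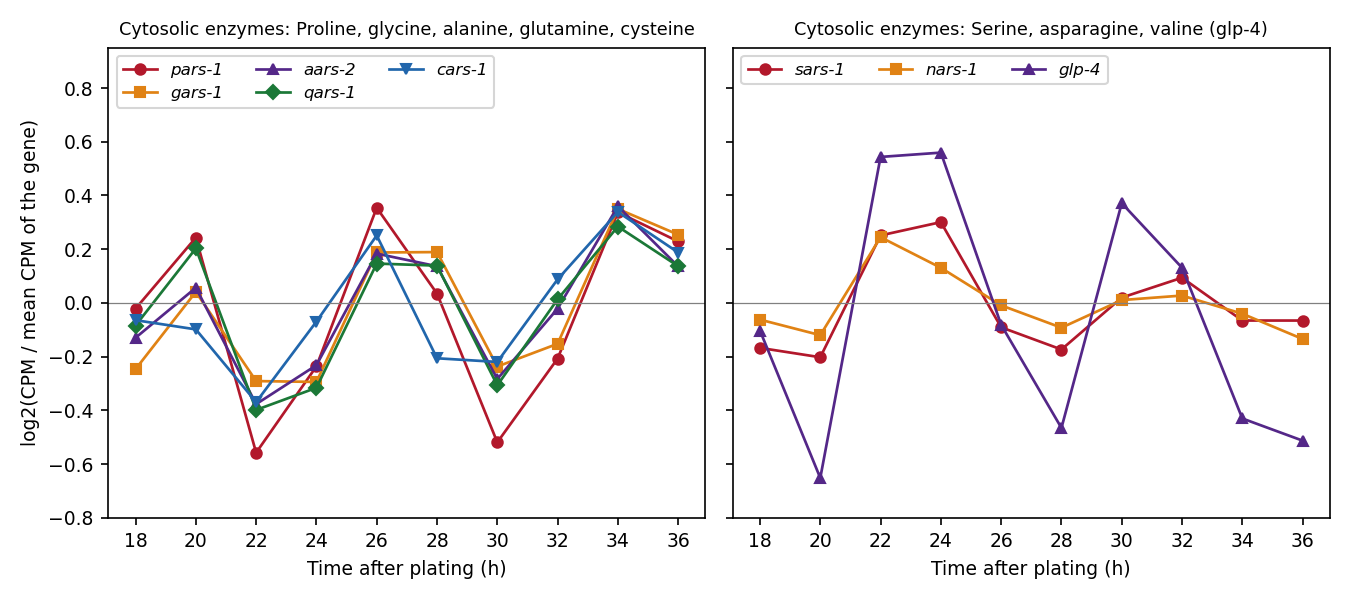
Cytosolic enzymes by time after plating (h), as log2 of CPM over the gene's mean CPM, with 1 library per point. The left panel holds the enzymes for proline, glycine, alanine, glutamine and cysteine, all below their means at 22 h and 30 h, and the right panel those for serine, asparagine and valine, all above their means at 22 h.

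The size of these cycles depends on the scaling, and the TMM factors themselves were highest at 22 h and 30 h. With library totals alone pars-1 still passed (0.57 log2, edgeR adjusted p = 0.0136) and cars-1 did (0.35 log2, adjusted p = 0.0414), but gars-1, aars-2 and qars-1 did not (0.23, 0.24 and 0.26 log2, adjusted p = 0.211, 0.150 and 0.179). The cycles of sars-1 and glp-4 were larger on that scale, at 0.72 and 1.41 log2, and nars-1 passed there, at 0.56 log2 (adjusted p = 0.00896). Ratios of 2 genes within a library need no scaling. For each footprint of pars-1 there were 1.18, 0.960, 2.29, 1.90, 0.960, 1.13, 1.90, 1.61, 0.988 and 1.07 footprints of sars-1 from 18 h to 36 h. The seryl enzyme thus outweighed the prolyl one most at 22, 24, 30 and 32 h, in both cycles. The ratio of glp-4 to pars-1 ran between 1.11 (20 h) and 4.41 (22 h), with 3.81 at 30 h.

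Epidermal collagen markers moved over the same libraries. All 3 markers of the epidermis list were measured and none was at 0 in any library, the lowest being 5.56 CPM. The sum of dpy-7, rol-6 and elt-3, cuticle collagens and an epidermal transcription factor, was 110.3 CPM at 22 h and 96.1 CPM at 30 h, where pars-1 was lowest. At the other times it lay between 571 and 2216 CPM. The collagens dpy-7 and rol-6 made up most of this sum and passed for oscillation, with peaks at 33.4 h and 26.9 h, while elt-3 averaged 19.6 CPM, peaked at 31.6 h and did not pass (edgeR adjusted p = 0.112). The sum of the 3 pharynx markers moved the other way, highest at 22 h (811 CPM) and 30 h (757 CPM) and between 333 and 653 CPM at the other times, with the lowest single value at 13.1 CPM. Of these the pharyngeal myosin genes myo-2 and myo-1 passed, with cycles of 1.45 and 0.78 log2 and peaks at 30.8 h and 31.4 h, near those of sars-1 and glp-4, and pha-4, a transcription factor of the pharynx, did not (0.14 log2). Collagens are rich in glycine and proline. The part of the epidermis and of the pharynx in the cycles of the synthetases was not tested.

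Slow changes over the 18 h were also small. Of the 32 genes 7 rose with an adjusted p under 0.05 at any size, where 22.6% of all tested genes did, and 1 fell, where 18.9% did. The directions depend on the scaling: with library totals alone the median trend of all tested genes shifts by -0.31 log2. On that scale none of the 32 rose and 7 fell, where 2308 and 4702 of the 13958 tested genes did. On the TMM scale the median over the 32 was 0.19 log2, beside -0.020 log2 over all tested genes. With library totals alone these were -0.12 and -0.33 log2.

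The largest rise was that of the mitochondrial prolyl enzyme pars-2, at 22.7, 22.1, 27.7, 26.9, 28.8, 30.7, 30.2, 31.9, 31.6 and 31.3 CPM. The first 2 libraries were the lowest and the last 5 lay within 30.2 and 31.9 CPM. The fitted trend was 0.51 ± 0.11 log2 (edgeR adjusted p = 0.00683; 0.20 log2 and adjusted p = 0.277 with library totals alone). Next came fars-2, the mitochondrial phenylalanyl enzyme, at 0.44 ± 0.10 log2 (edgeR adjusted p = 0.0101; 0.0561 without the 18 h library).

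Of the 20 other enzymes 5 rose on the TMM scale. The largest of these trends was that of wars-1 (WBGene00006945), the tryptophanyl enzyme, at 123, 121, 103, 128, 126, 128, 114, 145, 158 and 153 CPM, with the 3 highest values last. Its trend was 0.42 ± 0.10 log2 (edgeR adjusted p = 0.00992; 0.0647 without the 36 h library). The enzymes gars-1, cars-1, aars-2 and rars-1 (WBGene00004679, for arginine) had trends of 0.41 ± 0.11, 0.38 ± 0.10, 0.34 ± 0.11 and 0.25 ± 0.08 log2. These 4 lost the adjusted p without single libraries: gars-1 without 18 or 34 h, cars-1 without 18 or 36 h, aars-2 without 18, 22, 24, 28, 32 or 34 h, and rars-1 without 18, 20, 22, 28, 32 or 36 h (adjusted p up to 0.0909, 0.101, 0.198 and 0.171, given gene by gene). With library totals alone rars-1 had a trend of -0.064 log2. On the TMM scale the largest negative trend among the 20 was that of hars-1, at -0.13 ± 0.07 log2, which did not pass (edgeR adjusted p = 0.181). It did pass with library totals alone, at -0.45 log2 (edgeR adjusted p = 0.00281).

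Only ears-2 (WBGene00001338), the mitochondrial glutamyl enzyme, fell on the TMM scale. It had 31.2, 25.6, 33.2, 30.1, 24.7, 24.5, 26.4, 24.2, 20.9 and 19.2 CPM, lowest at 34 h and 36 h. The fitted trend was -0.62 ± 0.10 log2 (edgeR adjusted p = 0.00177), and it passed in all 21 alternatives, with -0.93 log2 for library totals alone. Its cycle was the largest of the mitochondrial enzymes, at 0.33 ± 0.09 log2, which did not pass (edgeR adjusted p = 0.0638) but did with library totals alone (0.63 log2, adjusted p = 0.0116). Within libraries, which needs no scaling, pars-2 had 0.728 footprints for each of ears-2 at 18 h and 1.63 at 36 h.

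The remaining 9 mitochondrial enzymes did not pass in either direction. Their trends ran from -0.35 ± 0.15 log2 for the aspartyl enzyme dars-2 (edgeR adjusted p = 0.100) to 0.41 ± 0.14 log2 for the arginyl enzyme rars-2 (WBGene00004680; edgeR adjusted p = 0.0534). The asparaginyl enzyme nars-2 (WBGene00013447) had -0.34 ± 0.12 log2 (edgeR adjusted p = 0.0555). The flattest cycle of all 32 on the TMM scale was that of the cytosolic dars-1, at 0.02 ± 0.07 log2. With library totals alone its cycle was 0.31 log2 (edgeR adjusted p = 0.0754).

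**Figure D4:**
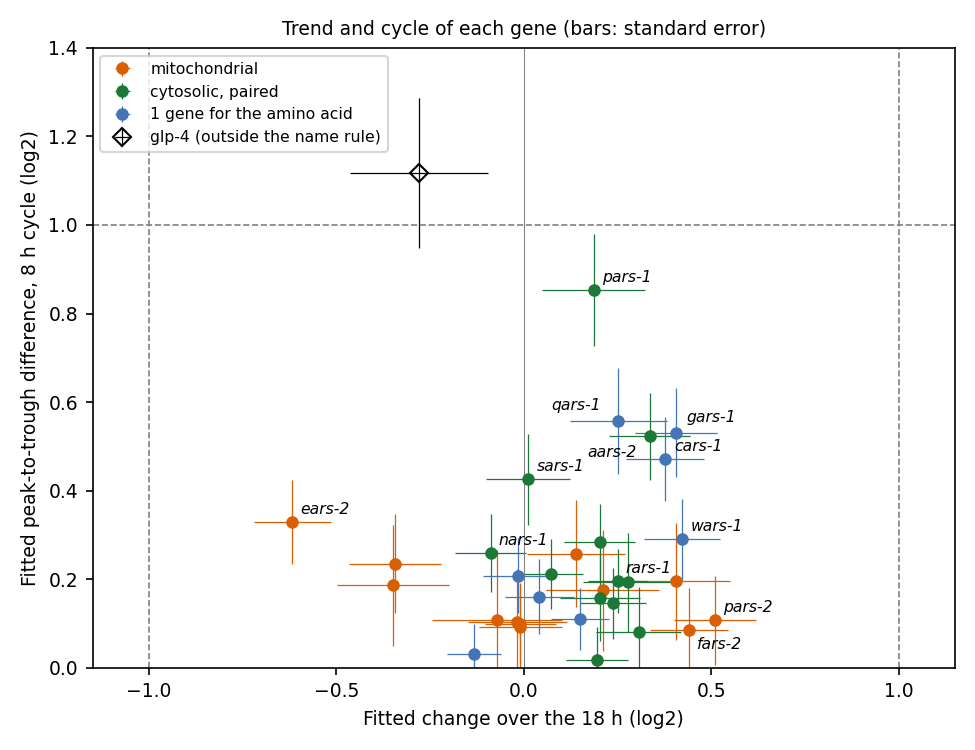
Fitted change over the 18 h (log2, horizontal) and fitted peak-to-trough difference of the 8 h cycle (log2, vertical) of the 32 genes and glp-4, with standard errors as bars and dashed lines at the required size of 1 log2. No point of the 32 passes a dashed line; pars-1 is highest at 0.85, glp-4 lies at 1.12, and ears-2 is leftmost at -0.62.

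Mitochondrial and cytosolic enzymes were set side by side without a test over the groups. On the TMM scale 2 of the 12 mitochondrial genes rose and 1 fell, and 5 of the 20 others rose and none fell (0 also at an unadjusted p under 0.05). Of all tested genes 22.6% rose and 18.9% fell by adjusted p alone. Median trends were -0.0093 log2 for the mitochondrial genes and 0.20 log2 for the others (-0.32 and -0.11 log2 with library totals alone). The 12 mitochondrial genes differed among themselves from -0.62 to 0.51 log2, the 20 others from -0.13 to 0.42 log2. Median cycles were 0.14 log2 for the mitochondrial genes and 0.21 log2 for the others, an order that did not hold with library totals alone (0.27 and 0.26 log2). Limited to the 12 paired cytosolic genes, 2 rose, 3 passed for oscillation, and the medians were 0.20 log2 for both trend and cycle. Over all tested genes 34.4% passed for oscillation by adjusted p alone.

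As a share that needs no scaling, footprints of the 12 mitochondrial genes amounted to 5.90%, 5.87%, 6.61%, 5.91%, 5.93%, 6.02%, 6.60%, 5.81%, 5.29% and 5.51% of those of the 20 others from 18 h to 36 h. The 22 h and 30 h libraries were the highest and alike, and 34 h and 36 h the lowest. At 22 h and 30 h the ratio was on average 1.12-fold the median of the other libraries, and 1.11-fold when counted per coding kilobase. These times were picked out after the values had been seen. Of the 12 pairs within an amino acid, 8 had a higher mitochondrial share at 22 h and 30 h, most of all proline (0.70 log2), and 4 did not, with asparagine lowest (-0.35 log2). Valine was not among these pairs because glp-4 lies outside the naming rule, and the ratio of vars-1 to glp-4 was lower at these times (-0.63 log2). Methionine was not paired either. At 22 h and 30 h Y105E8A.20 was highest, at 18.5 and 13.9 CPM, and mars-1 lowest, at 226 and 243 CPM. Neither glp-4 nor Y105E8A.20 was counted in the shares, and both were high at 22 h and 30 h. The summed level of the mitochondrial genes itself stayed between 315 CPM (18 h) and 365 CPM (26 h). That of the 20 others lay between 5199.9 CPM (22 h) and 6256 CPM (34 h). This low at 22 h depends on leaving out glp-4. That gene had 902 CPM at 22 h and 800 CPM at 30 h, against 576 CPM at 18 h and 459 CPM at 34 h.

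**Figure D5:**
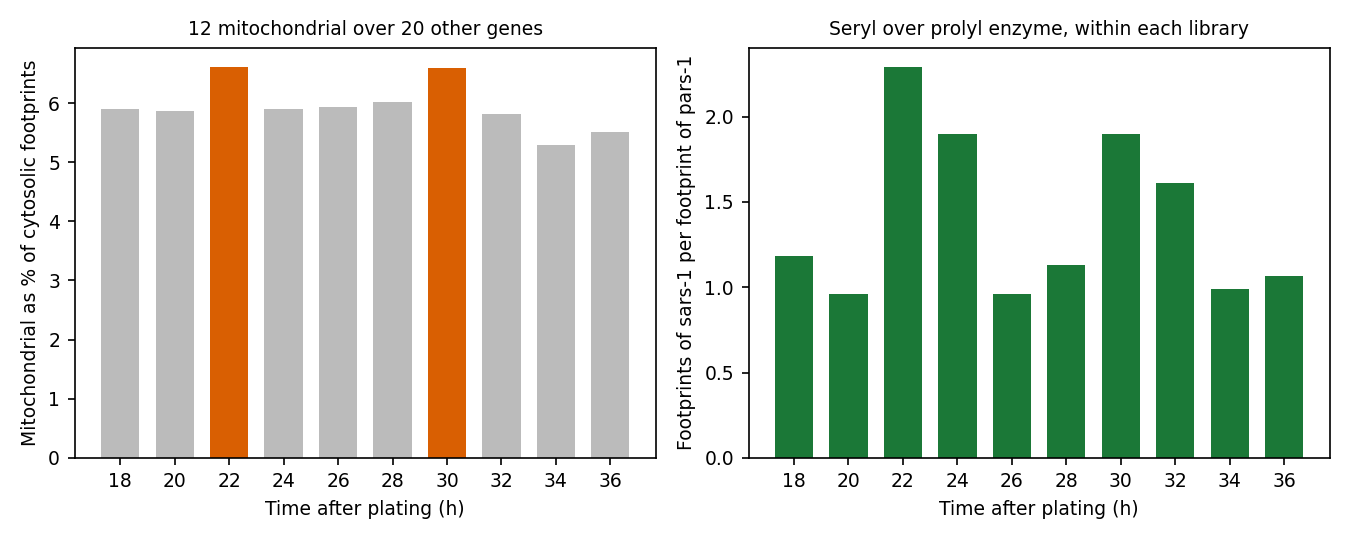
Left, summed footprints of the 12 mitochondrial genes as a percentage of those of the 20 other genes in each library, with 22 h and 30 h in orange at 6.61% and 6.60%. Right, footprints of sars-1 for each footprint of pars-1, between 0.960 and 2.29, by time after plating (h).

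Most germline markers, and some of neurons and pharynx, changed more than any synthetase over this time. Of 6 germline genes 5 rose by at least 1 log2 (all but glp-1), and their sum was 298 CPM at 18 h and 1461 CPM at 36 h. The lowest single value was 1.80 CPM, for him-3 at 18 h. Of the 3 neuron markers rab-3 and unc-119 fell, by 1.36 and 0.80 log2, and the sum of all 3 lay between 129.9 and 207 CPM. Of the 3 pharynx markers pha-4 fell, by 1.21 log2. The part of these cell types in the small trends of the synthetases was not tested.

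Other parts of the translation machinery gave a frame for these values. Cytosolic ribosomal protein genes rose in 64 of 76 by adjusted p alone and fell in 1, with a median trend of 0.71 log2, where 22.6% of all tested genes rose (34 rose and 2 fell with library totals alone, median 0.40 log2). Their median cycle was 0.46 log2, and 1 of 76 passed for oscillation on the TMM scale, where 34.4% of all tested genes did. Mitochondrial ribosomal protein genes rose in 1 and fell in 15 of 69, where 18.9% of all tested genes fell, with a median trend of -0.19 log2 (0 rose and 55 fell with library totals alone). With library totals alone 2308 of the 13958 tested genes rose and 4702 fell. None of the 69 mitochondrial ribosomal genes passed for oscillation by edgeR on the TMM scale, with 0 also at an unadjusted p under 0.05. With library totals alone 12 of them passed, where 43.7% of all tested genes did. Among 6 genes of cytosolic elongation factors, which bring charged tRNA to the ribosome and move it along, eef-1A.1 (WBGene00001168) rose by 0.70 ± 0.13 log2 (edgeR adjusted p = 0.00255) and eef-1A.2 (WBGene00001169) fell by 0.72 ± 0.13 log2 (edgeR adjusted p = 0.00324), both also with library totals alone. Both encode the factor that delivers charged tRNA and are similar in sequence, and the sources used here do not say how reads matching both were counted. Of 7 listed mitochondrial translation factors 4 were found and tested, and 1 passed, the elongation factor gene tsfm-1 (WBGene00010094), at -0.42 ± 0.13 log2 (edgeR adjusted p = 0.0385), a call lost with median-ratio factors. Scaled by library totals alone, 3 of the 4 fell, tsfm-1 by 0.73 log2 (adjusted p = 0.00487), tufm-1 and tufm-2. Of 4 genes of the pathway that senses uncharged tRNA, gcn-1 and gcn-2 were tested and neither passed in either test by edgeR (1 cycle and 1 upward trend at an unadjusted p under 0.05), while gcn-1 rose with median-ratio factors.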

How the data were processed

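The deposited files hold raw, unscaled footprint counts for each gene, and a second table by the authors with log2 values, which match the counts scaled to the mean library total with 8 added (largest difference 5e-05 log2). Bowtie, without a version, is named in the submitters' processing notes. The sources used here do not give the genome build, the gene annotation or how reads with several matches were counted, and coordinates are therefore left out. Of the identifiers 18778 had a symbol in the name table and 1404 had none (1.15% of counts). Coding lengths are those of Ensembl 115.

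Genes were tested when at least 3 libraries passed the CPM of 10 counts in the median library. Counts were fitted with edgeR 4.0.16 in R 4.3.3 (TMM, robust quasi-likelihood; intercept, linear time, 8 h cosine and sine; 6 residual degrees of freedom), and p adjusted over all tested genes. Standard errors come from the scatter of single libraries around that curve, moderated by edgeR with the scatter of all tested genes. Nothing in the labels says that libraries came from separate cultures. DESeq2 1.42.0 and limma 3.58.1 served as alternatives; the fit was tested on simulated data. Members, gene lists and tests were chosen with earlier results of these data known. By rule the named members were, in each group, those with the largest rise, fall and cycle, the smallest p, and the highest and lowest level, plus called members, and none was called. Pairs are given by their ratio. Members past the adjusted p at any size, and others such as nars-1, nars-2 and rars-2, were named outside this rule with the results known.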

Additional observations from a re-analysis of the deposited data

How the results depend on the processing

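None of the 32 genes passed the required 1 log2 in either test under any alternative that kept this minimum. With no minimum, 6 of them oscillated, 7 rose and 1 fell. Of all tested genes 34.4% oscillated, 22.6% rose and 18.9% fell by adjusted p alone. The cytosolic valyl gene glp-4, not counted among the 32, did pass for oscillation on the TMM scale (1.12 log2). Counts at any size were less stable. The 6 oscillating became 2 with a period of 8.5 h, 1 without the time term and 3 to 6 when a library was left out (3 without 22, 30 or 34 h). They became 9 with DESeq2, 8 with library totals alone, 8 with limma on the deposited values and 7 with a filter at a mean of 50 counts. The 8 with library totals alone were pars-1, cars-1, sars-1, nars-1, hars-1, ears-2, sars-2 and tars-1 (0.38 log2, edgeR adjusted p = 0.0147). Only pars-1, cars-1 and sars-1 of these were among the 6 on the TMM scale. The 7 rising became 11 with median-ratio factors, 14 with DESeq2, 0 with library totals alone or limma on the deposited values, 3 with a period of 8.5 h, 2 without cycle terms and 2 to 10 with a library left out (2 without 18 h). The 1 falling became 7 with library totals alone, 9 with limma and 1 to 2 with a library left out (2 without 22 h). With median-ratio factors 3413 of the 13958 tested genes rose and 2340 fell. Shares over all tested genes were worked out only for the TMM scale, median-ratio factors and library totals alone. The member counts under the other alternatives therefore have no such share beside them. With library totals alone the mitochondrial group had 2 oscillating, 0 rising and 3 falling, with medians of -0.32 log2 (trend) and 0.27 log2 (cycle), and the cytosolic group 0 rising and 4 falling, with a median trend of -0.11 log2. On that scale 2308 of the 13958 tested genes rose, 4702 fell and 43.7% passed for oscillation. Of the 22 positive trends 15 turned negative there, among them rars-1 (-0.064 log2), which had passed, and sars-1 (-0.30 log2), which then passed. The cytosolic group had 8 rising with median-ratio factors. It had 3 oscillating and 2 rising without the genes that are alone for their amino acid under this naming, mars-1 included. Trends gene by gene were compared with the TMM scale under the other scalings, no filter, other periods, quadratic time and each library left out. An uncalled trend changed sign in 43 of these comparisons. DESeq2, limma, the stricter count filter, the fits with a term left out and the newer quasi-likelihood method were not among them. The cause was not tested. Among trend calls of all genes, 54.5% were rises on the TMM scale and 32.9% with library totals alone. The newer quasi-likelihood method, and all counts at any size, were alternatives chosen after seeing the data. No paired analysis was possible because each time has 1 library and the labels give no replicate numbers. Mitochondrial genes have the fewest counts (172 for aars-1 at its lowest), which limits their precision.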

Other observations

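The methionyl gene that RefSeq calls mars-2 (Y105E8A.20) stood out in 2 libraries. It had 18.5 CPM at 22 h and 13.9 CPM at 30 h, and between 7.45 and 10.2 CPM in the other 8 libraries, with 143 to 519 counts. The fitted cycle was 0.92 ± 0.27 log2 (edgeR adjusted p = 0.0510), which did not pass.

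Genes listed under tRNA modification and maturation also changed little. The list holds genes by name, and whether each of them, nsun-1 and nsun-5 included, acts on tRNA was not checked. Of 24 listed, 20 were tested and none reached 1 log2 in either test (unadjusted p under 0.05 for 4 in oscillation, 5 upward and 2 downward). At any size 4 rose, where 22.6% of all tested genes did: elpc-2 (WBGene00013738), a subunit of the elongator complex that modifies the wobble base of tRNAs, by 0.56 ± 0.10 log2, the tRNA methyltransferase gene nsun-2 (WBGene00021686) by 0.55 ± 0.12 log2, tgt-2 (WBGene00006567), a homologue of a subunit of tRNA-guanine transglycosylase, by 0.53 ± 0.14 log2, and nsun-1 (WBGene00021073) by 0.32 ± 0.09 log2. With library totals alone none of the 20 rose, 6 fell and 5 passed for oscillation, against 1 on the TMM scale. On the TMM scale 34.4% of all tested genes passed for oscillation and 18.9% fell. Of the 13958 tested genes 2308 rose, 4702 fell and 43.7% passed for oscillation with library totals alone. The tRNA isopentenyl transferase gene gro-1 (WBGene00001740) fell by 0.49 ± 0.12 log2 (edgeR adjusted p = 0.0128) and also with library totals alone, by 0.81 log2. The related tgt-1 (WBGene00006566) passed for oscillation at 0.30 ± 0.08 log2 (edgeR adjusted p = 0.0483).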
